A study of Mus musculus with 8 samples.

Results

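The comparison described here is that of 4-octyl itaconate (4-OI) with its vehicle, in mouse cortical neuron cultures that received no hemin. Genes entered when at least 2 of these 4 libraries had an FPKM of 1 or more, and 12387 of the 19417 genes in the deposited table did so. FPKM is a level per transcript length and library size, and its comparison between libraries depends on their composition, so other scalings were tried. The cultures came from C57BL/6 mice, with no genetic change named in the labels, and were exposed for 24 h. The vehicle group received DMSO (n = 2 libraries) and the 4-OI group received 10 µM 4-OI (n = 2), while the rest of the 8 libraries received 50 µM hemin without or with 10 µM 4-OI (n = 2 each). Nothing in the labels says that libraries of a group came from separate cultures, so a p-value here reflects nothing beyond the scatter among these libraries, part or all of which can be technical. The labels give an age of 24 h, which equals the exposure, and do not give the age of the animals.

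Itaconate is a metabolite that activated macrophages make from cis-aconitate with the enzyme encoded by Acod1, and 4-OI is its octyl ester, which enters cells. 4-OI alkylates cysteines of KEAP1, the adaptor that marks the transcription factor NRF2 (gene Nfe2l2) for destruction, so that NRF2 accumulates and binds antioxidant response elements near its targets. Those targets supply glutathione and thioredoxin, reduce quinones, break down heme and store iron, and in brain tissue the pathway is known as more active in astrocytes than in neurons.

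Sequences upstream of the NRF2 targets Gclm and Txnrd1 and of Nfe2l2 are shown because the comparison turns on this pathway. RefSeq windows (build GRCm38.p6) were found for 13 of 18 genes chosen as keys. These keys also include genes that are not in the NRF2 target lists, among them Malat1 and Tubb3. Of the 13 genes, 3 hold the core of the antioxidant response element, TGACNNNGC, on either strand in the 250 bases before the start of the transcript. The core is in capitals, 5′ to 3′ on the strand of the gene, and reads as its reverse complement in Gclm and Txnrd1. Gclm encodes the modifier subunit of the first enzyme of glutathione synthesis (chr3:122245307-122245556, plus strand), Txnrd1 thioredoxin reductase 1 (chr10:82858956-82859205, plus strand) and Nfe2l2 NRF2 itself (chr2:75704664-75704913, minus strand).
Gclm: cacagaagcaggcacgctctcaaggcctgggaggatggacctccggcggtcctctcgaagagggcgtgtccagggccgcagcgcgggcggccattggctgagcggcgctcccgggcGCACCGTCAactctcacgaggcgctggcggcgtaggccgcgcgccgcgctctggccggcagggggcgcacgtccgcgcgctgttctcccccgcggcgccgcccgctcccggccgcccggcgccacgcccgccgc
Txnrd1: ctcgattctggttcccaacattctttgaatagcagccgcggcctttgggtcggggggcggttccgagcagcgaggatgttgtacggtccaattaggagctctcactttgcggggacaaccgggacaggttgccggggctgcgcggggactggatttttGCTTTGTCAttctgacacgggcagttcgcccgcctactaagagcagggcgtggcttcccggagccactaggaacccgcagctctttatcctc
Nfe2l2: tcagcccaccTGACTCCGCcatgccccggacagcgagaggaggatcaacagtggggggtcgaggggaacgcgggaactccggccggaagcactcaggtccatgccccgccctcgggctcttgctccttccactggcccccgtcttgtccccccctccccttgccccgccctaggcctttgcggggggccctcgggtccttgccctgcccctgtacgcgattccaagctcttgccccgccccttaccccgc
The core lies 126 to 134 bases before the start in Gclm, 84 to 92 in Txnrd1 and 232 to 240 in Nfe2l2. Of 39 tested NRF2 targets with a window, 11 (28.2%) hold the core in at least 1 window, beside 13.9% of 9861 tested genes with one and 10.2% of all 32851 windows. Windows of Srxn1, Nqo1 and Slc7a11 hold no match, which says only that these letters are not in these bases.

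The 4 libraries were close to each other as wholes. Estimated depth was 8.95 to 10.35 M fragments over the 8 libraries, 3377 to 3447 genes were listed at 0 in each library without hemin, and Tuba1a, a tubulin gene of neurons, had the highest FPKM in each of these. Across genes the median absolute difference in log2(FPKM + 1) was 0.0864 between the DMSO libraries, 0.119 between the 4-OI libraries and 0.0987 to 0.116 between libraries of different groups. The typical gap between groups thus lay inside the range of the gaps within them. Between the libraries of a pair, the variance was 1.92 times the estimated counting noise for DMSO, 3.17 times for 4-OI and 2.09 times for hemin with 4-OI, but 23.5 times for hemin alone, whose libraries stand apart. The filter kept 11803 genes through all 4 libraries, 62 only through both 4-OI libraries and 26 only through both DMSO libraries, and such genes had to differ. The second-highest value was 1 in the 21 genes just inside it, among them Irf8, and 0.99 in the 14 just outside it, among them Mvp.

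The label of cortical neurons was checked against markers. All 18 neuron-wide genes were tested, with a summed FPKM of 4709 and 4719 with DMSO and 4705 and 4354 with 4-OI. Tubb3, the beta-tubulin typical of neurons, stood at 1179 and 1179 with DMSO and 1141 and 1121 with 4-OI. Astrocyte markers were also plain, with 16 of 18 tested and a sum of 1256 and 1245 with DMSO and 1150 and 1276 with 4-OI. Markers of microglia and macrophages (15 of 19 tested) had lower sums, 249 and 236 with DMSO and 194 and 305 with 4-OI. Those of fibroblasts (11 of 15 tested) had 331 and 339 with DMSO and 325 and 367 with 4-OI. The fibroblast sum includes Igfbp2, also listed below among choroid plexus-like genes. With DMSO the collagen genes Col1a1 (1.88 and 1.67) and Col5a1 (1.63 and 1.66) were near the filter, so these sums do not rank cell types. Endothelial markers (1 of 12 tested) and red blood cell genes (0 of 7) were near 0. Values below therefore belong to mixed cultures, and in them fewer cells of a type and less RNA per cell cannot be told apart.

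No gene passed the threshold for a change with 4-OI (limma on log2(FPKM + 1), Benjamini-Hochberg adjusted p below 0.05; 0% of 12387), and the lowest adjusted p was 0.0546. At an unadjusted limma p below 0.05, 387 genes were higher with 4-OI (3.12%) and 273 lower (2.2%), so 58.6% of them were higher. That split depends on scaling: it was 71.3% when libraries were rescaled to TPM, 49.4% after quantile normalization and 46.6% after median-of-ratios scaling. Both 4-OI values lay above both DMSO values in 2525 genes (20.4%) and below both in 1875 (15.1%), and of these 440 (3.55%) and 200 (1.61%) also differed by at least 1.2-fold on FPKM + 1. With 2 libraries against 2, an exact two-sided permutation test of a single gene cannot give a p below 0.333. Differences were small: 5% of genes had a log2 fold change below -0.20 and 5% above 0.25, with a median of 0.01. A fold of at least 1.5 on FPKM + 1 was reached by 39 genes on the higher side and 22 on the lower, and a fold of at least 2 by 5 and 1. Folds on FPKM + 1 understate the change of genes with low FPKM.

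**Figure D1:**
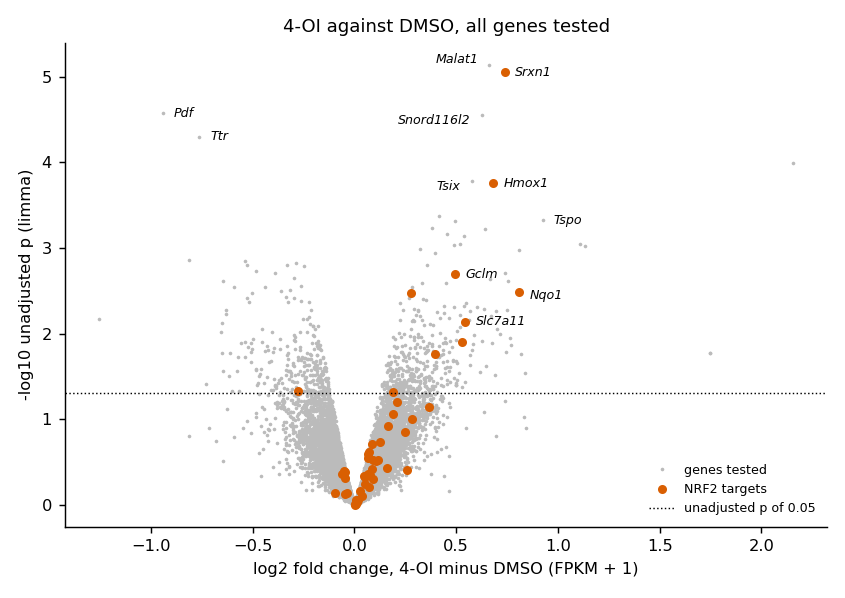
Log2 fold change of 4-OI minus DMSO on log2(FPKM + 1) (x axis) against the negative log10 of the unadjusted limma p (y axis) for 12387 genes, grey, with the 49 tested NRF2 targets in orange and the dotted line at an unadjusted p of 0.05. Srxn1 and Malat1 share the top at a fold change of 0.74 and 0.66, Pdf and Ttr lead the lower side at -0.94 and -0.76, and 9 NRF2 targets lie above the line on the higher side against 1 on the lower.

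NRF2 target genes were, as a group, slightly higher with 4-OI, and a few of them stood well above the rest. Of 57 genes in 6 lists, 49 were tested, 0 of them through the 4-OI libraries alone, and 41 of these had a fold change above 0 (54.1% of all genes did). In 19 of 49 both 4-OI values exceeded both DMSO values, or 38.8% beside 20.4% of all genes, and 1 of 49 was lower without overlap, 2.04% beside 15.1%. At an unadjusted limma p below 0.05, 9 members were higher (18.4% beside 3.12%) and 1 was lower, and 0 passed the adjusted threshold. The median log2 fold change was 0.08 over the 49 and 0.01 over all genes. By library the median against the DMSO mean was 0.02 in 4-OI replicate 1 and 0.13 in replicate 2, so the shift of the middle of the list came mostly from replicate 2, whereas the strongest members were high in both.

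Among genes of the thioredoxin system, Srxn1 stood out. Srxn1 encodes sulfiredoxin, which repairs over-oxidized peroxiredoxins, and its FPKM was 20.1 and 20.9 with DMSO and 33.6 and 36.2 with 4-OI. The 4-OI libraries lay close together and far above the DMSO pair, with a log2 fold change of 0.74 ± 0.07 (standard error, here and below), or 1.67-fold on FPKM + 1 (limma adjusted p = 0.0546). It passed the threshold in some alternative fits: the adjusted p was 0.0337 when genes under an FPKM of 5 were left out, 0.0425 after rescaling to TPM and 0.0078 when the hemin with 4-OI libraries shared in the estimate of the spread. Over 16 alternatives it ranged from 0.00773 to 1, the highest with all 8 libraries in the fit and the next, 0.876, without the intensity trend. Txnrd1, which encodes thioredoxin reductase 1, had 47.8 and 43.3 with DMSO and 56.0 and 54.9 with 4-OI (0.28 ± 0.07, limma adjusted p = 0.878). Its groups did not overlap either, at a gap well under that of Srxn1. All 6 tested members of this list were above 0, and 4 were higher without overlap (66.7% beside 20.4% of all genes). The other pair of these was Txn1, thioredoxin itself (0.07), and Prdx6, a peroxiredoxin (0.09).

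Most cystine and glutathione genes were also above 0. Slc7a11, the cystine importer of system xc-, was low in these cultures, at 1.66 and 1.52 with DMSO and 2.99 and 2.56 with 4-OI. Both 4-OI values were above both DMSO values, at a log2 fold change of 0.54 ± 0.15 (limma adjusted p = 0.883). Gclm had 12.4 and 11.2 with DMSO against 15.5 and 18.7 with 4-OI, again without overlap (0.49 ± 0.11, adjusted p = 0.762). For Gclc, the catalytic partner of Gclm, the values were 14.8 and 16.9 with DMSO and 17.4 and 19.5 with 4-OI, where the lower 4-OI value sat only just above the higher DMSO value (0.21 ± 0.10). Gss, glutathione synthetase, had 8.46 and 8.17 with DMSO and 9.91 and 9.34 with 4-OI (0.19 ± 0.10). Gsr, which encodes the reductase that regenerates glutathione, overlapped between the groups, with 17.9 and 16.6 against 18.5 and 17.8 (0.07 ± 0.08). Of 7 tested members 6 were above 0, with a median of 0.19.

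Genes of quinone and aldehyde detoxification split into a few that were higher and many near 0. Nqo1 encodes a quinone reductase often used as a readout of NRF2, and its FPKM was 2.34 and 1.86 with DMSO and 5.44 and 3.55 with 4-OI. The groups did not overlap, yet the 4-OI libraries differed from each other by more than the lower of them differed from DMSO replicate 1, and the log2 fold change was 0.81 ± 0.19 (limma adjusted p = 0.878). Cbr3, a carbonyl reductase, had 4.17 and 4.77 with DMSO and 5.69 and 6.72 with 4-OI (0.40 ± 0.13). Aox1, an aldehyde oxidase, had 0.95 and 1.30 with DMSO and 2.00 and 2.12 with 4-OI (0.53 ± 0.16), both near the filter. Ugt1a6a, a glucuronosyltransferase, was the last of the 4 members higher without overlap among 14 tested (0.28 ± 0.15). That share is 28.6%, beside 20.4% of all genes. Of the members 11 were above 0, and the median was 0.02 in 4-OI replicate 1 and 0.21 in replicate 2. In the list, 7 members, most of them glutathione transferases, were too low to be tested.

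Heme and iron genes gave the widest contrast within the group. Hmox1 encodes heme oxygenase 1, which opens the heme ring, and had 18.8 and 20.01 with DMSO and 28.7 and 35.1 with 4-OI. Both 4-OI libraries were clear of both DMSO libraries, at 0.68 ± 0.10 or 1.604-fold on FPKM + 1 (limma adjusted p = 0.273, with a range of 0.0421 to 1 over 16 alternatives). Blvrb, a biliverdin reductase that acts after heme oxygenase, was the 1 NRF2 target lower without overlap, at 6.18 and 7.08 with DMSO and 5.41 and 5.14 with 4-OI (-0.28 ± 0.12, adjusted p = 0.883). The ferritin subunit genes were abundant and did not separate: Fth1, the heavy chain, had 654 and 648 with DMSO and 648 and 696 with 4-OI. Ftl1, the light chain, had 1582 and 1659 with DMSO and 1492 and 1797 with 4-OI, so the 4-OI libraries held both the lowest and the highest value, and the sign of its fold change (0.02) turned with median-of-ratios scaling. Over the 7 tested members the median was 0.02, also with a sign that turned with that scaling. Of the 7, 1 was higher without overlap (14.3% beside 20.4% of all genes).

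NADPH supply and export genes differed little. Of the 6 NADPH and pentose phosphate genes, Pgd, 6-phosphogluconate dehydrogenase (0.17 ± 0.09), and Tkt, transketolase (0.07 ± 0.05), were higher without overlap. That is 33.3% beside 20.4% of all genes, and the median was 0.06. Among 10 genes of export and other functions, 9 were above 0 and 4 were higher without overlap (40% beside 20.4%). Abhd4, a lipid hydrolase, had 24.1 and 25.9 with DMSO and 27.0 and 30.3 with 4-OI (0.19 ± 0.08). Osgin1, an oxidative stress-induced growth inhibitor, had 1.6 and 1.05 with DMSO and 2.09 and 1.87 with 4-OI (0.37 ± 0.18). The remaining pair was Panx2, a pannexin channel subunit (0.11), and Abcc4, an export pump (0.16), both with standard errors of about their own size.

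**Figure D2:**
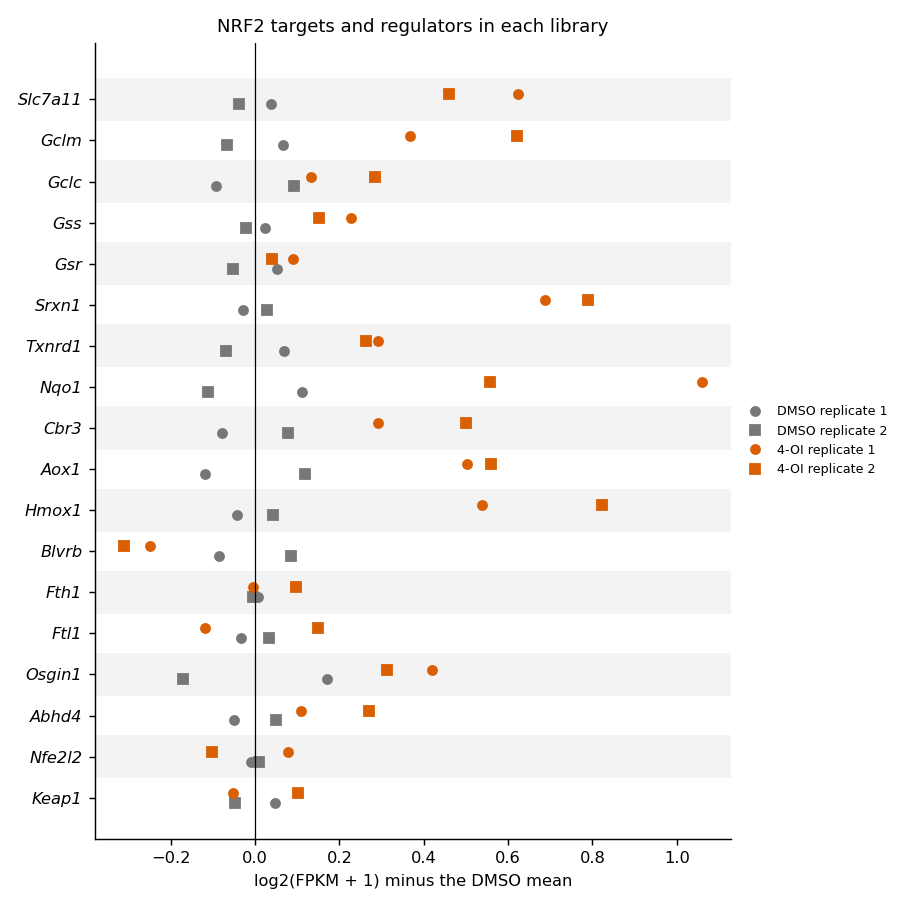
Log2(FPKM + 1) of 18 NRF2 pathway genes in each of the 4 libraries minus the gene's DMSO mean (x axis), with DMSO in grey, 4-OI in orange, circles for replicate 1 and squares for replicate 2. Srxn1, Hmox1, Nqo1, Slc7a11 and Gclm have both orange marks to the right of both grey marks, Blvrb has them to the left, and Fth1, Ftl1, Nfe2l2 and Keap1 overlap.

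The genes of NRF2 itself and of its regulators did not share that direction. Nfe2l2 had 7.87 and 8 with DMSO and 8.43 and 7.32 with 4-OI, with the 4-OI libraries on either side of the DMSO pair (-0.01 ± 0.11, and 0.0036 after rescaling to TPM). Keap1 had 23.4 and 21.9 with DMSO and 21.8 and 24.4 with 4-OI, also overlapping (0.02 ± 0.08). Over 12 tested genes of this list, 5 were above 0 and the median was -0.02, a sign that turned with rescaling to TPM. None was higher without overlap and 5 were lower without overlap, which is 41.7% of them beside 15.1% of all genes. These 5, looked up after the count was seen, were Mafk (-0.27 ± 0.12) and Maff (-0.21 ± 0.17), small MAF proteins that pair with NRF2 on DNA, Bach2, a repressor at the same elements (-0.08), Rbx1, a subunit of the ligase that marks NRF2 (-0.07), and Nfe2l1, a factor related to NRF2 (-0.03). Mafk was the clearest, at 5.76 and 6.45 with DMSO and 4.88 and 4.89 with 4-OI. Acod1, the itaconate-producing enzyme, was under the filter at 0 and 0.21 with DMSO and 0.04 and 0.09 with 4-OI. Of 14 tested genes of itaconate and linked metabolism, 2 were higher (14.3%) and 4 lower (28.6%) without overlap, beside 20.4% and 15.1% of all genes.

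Whether the NRF2 targets also differed with 4-OI under hemin was asked with the hemin with 4-OI libraries against the hemin libraries, a comparison that shares no library with 4-OI against DMSO. Over all genes it made no calls either (limma adjusted p below 0.05, 0%), with 45.7% of genes above 0. Of the 49 targets 11 were above 0, and the median was -0.18 (-0.02 over all genes). Groups did not overlap in 3 targets on the higher side (15.1% of all genes) and 8 on the lower (19.2%). Of the 19 targets that were higher without overlap with 4-OI alone, 0 were so under hemin and 2 were lower without overlap. The hemin libraries stand apart, and each of these values rests on them. For 39 of the 49 targets, hemin alone was above DMSO (limma adjusted p below 0.05, as in 33.9% of all genes), and these comparisons share the DMSO libraries.

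For single targets the levels under hemin were far above those with 4-OI alone. Srxn1 had 145 and 83.1 with hemin and 112 and 110 with hemin and 4-OI, so the libraries with 4-OI lay between the hemin libraries (0.01 ± 0.21). Hmox1 had 1564 and 755 with hemin against 807 and 802 with both, also inside the hemin range (-0.43). Nqo1 had 32.2 and 11.96 with hemin and 16.2 and 15.97 with both. In all 3 genes hemin replicate 1 was the highest library of the series. The difference between the effects of 4-OI with and without hemin, fitted over all 8 libraries, was -0.73 ± 0.30 for Srxn1 (limma adjusted p = 0.864). No tested gene passed. An unadjusted limma p below 0.05 was reached by 588 of 12387, where a share of 0.05 would reach it without any difference. How many genes passed moved widely with which hemin library was left out. Each such fit held only 1 hemin library, and the cause was not tested.

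**Figure D3:**
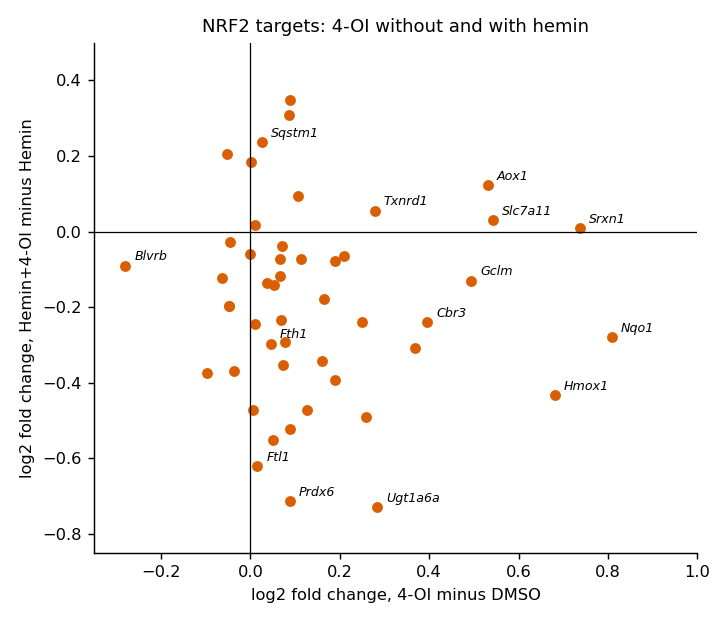
Log2 fold change on log2(FPKM + 1) of the 49 tested NRF2 targets for 4-OI minus DMSO (x axis) and for hemin with 4-OI minus hemin (y axis). Most points lie right of 0 on the x axis (41), only 11 lie above 0 on the y axis, and Srxn1, at 0.74 on the x axis, is at 0.01 on the y axis.

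Several long noncoding RNAs were higher in both 4-OI libraries. Malat1, an abundant RNA of nuclear speckles, had the lowest p of all genes, with an FPKM of 90.7 and 83.3 with DMSO and 142 and 135 with 4-OI. The groups were far apart for their spread, at a log2 fold change of 0.66 ± 0.06 or 1.58-fold on FPKM + 1 (limma adjusted p = 0.0546, with a range of 0.00773 to 1 over 16 alternatives). Meg3, a noncoding RNA expressed from the maternal chromosome, had 184 and 177 with DMSO and 228 and 282 with 4-OI (0.49 ± 0.09, adjusted p = 0.613). Of 15 tested nuclear and imprinted noncoding RNAs, 13 were above 0 (86.7% beside 54.1% of all genes) and 9 were higher without overlap (60% beside 20.4%). Tug1 (-0.08) and Snhg1 (-0.12) were lower without overlap, 13.3% beside 15.1%. At an unadjusted limma p below 0.05, 5 were higher (33.3% beside 3.12%) and 0 lower (2.2% of all genes). Those beside Malat1 and Meg3 were Miat (0.29 ± 0.07), Neat1, the scaffold of paraspeckles (0.43 ± 0.16), and Pvt1 (0.39 ± 0.16), which was added after its value had been seen. Over the list the median was 0.18, and 0.20 in each 4-OI library against the DMSO mean, so the shift was alike in both. The DMSO libraries themselves differed in this list by a median of 0.09, replicate 1 above replicate 2. In the hemin with 4-OI libraries against the hemin libraries, the median of the list was -0.05 and 5 of 15 were above 0. Malat1 (-0.35) and Meg3 (-0.24) were below 0 there, with both libraries with 4-OI between the hemin libraries.

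Snord116l2, from the imprinted cluster of small nucleolar RNAs linked to Prader-Willi syndrome, had 27.8 and 26.8 with DMSO and 40.7 and 44.8 with 4-OI (0.63 ± 0.07, limma adjusted p = 0.0862). Tsix, the antisense partner of Xist, had 18.98 and 18.85 with DMSO and 30.8 and 26.7 with 4-OI (0.58 ± 0.08, adjusted p = 0.273). Snord116l2 and Tsix were picked by low p among genes with groups apart, so their lack of overlap follows from the choice. Such a choice also favors nearly equal DMSO libraries, as those of Tsix were. Xist, the RNA of X inactivation, had 71.6 and 74.2 with DMSO and 87.7 and 83.2 with 4-OI. Strandedness of the libraries is not given in the sources used here, so reads of Tsix and Xist cannot be told apart.

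Structural RNAs differed among themselves and between the 4-OI libraries, and none passed the threshold. The summed FPKM of the 6 tested was 1355 and 1340 with DMSO and 1778 and 1288 with 4-OI, so 4-OI replicate 1 had the highest sum and replicate 2 the lowest. Rn28s1, the RNA of the large ribosomal subunit, had 247 and 219 with DMSO and 373 and 306 with 4-OI (0.54 ± 0.10, limma adjusted p = 0.596). Rn45s, the ribosomal RNA precursor, had 2.74 and 3.41 with DMSO and 4.98 and 4.90 with 4-OI (0.55 ± 0.14). Rn18s, the small-subunit RNA, in contrast had 1072 and 1100 with DMSO and 1262 and 938 with 4-OI, with the 4-OI libraries at both ends, and its log2 fold change of 0.0027 became -0.014 with median-of-ratios scaling. Rn7s1 and Rn7s2, signal recognition particle RNAs with identical values that may be the same reads, had 13.9 and 5.43 with DMSO and 61.6 and 16.2 with 4-OI (1.75 ± 0.57). Rn7sk, a polymerase III RNA, had 5.41 and 6.56 with DMSO and 15.2 and 6.26 with 4-OI, so only replicate 1 was high. All 6 tested members were above 0 on the deposited scale. Higher without overlap were 4 (66.7% beside 20.4% of all genes), the identical pair among them. The median was 0.59, with 0.95 in 4-OI replicate 1 and 0.47 in replicate 2. How RNA was selected for sequencing is not given in the sources used here, and the part of RNA selection in these values was not tested.

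**Figure D4:**
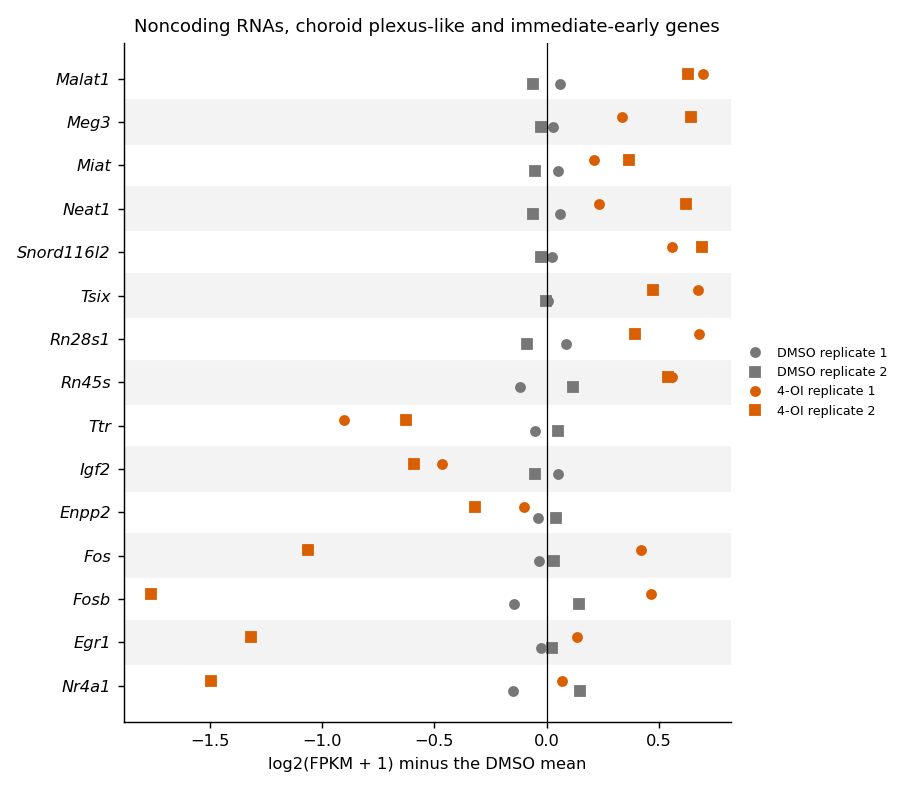
Log2(FPKM + 1) of noncoding RNAs, choroid plexus-like genes and immediate-early genes in each of the 4 libraries minus the gene's DMSO mean (x axis), with DMSO in grey, 4-OI in orange, circles for replicate 1 and squares for replicate 2. Both 4-OI libraries lie on the same side of both DMSO libraries for the 8 RNAs from Malat1 to Rn45s and for Ttr, Igf2 and Enpp2, while for Fos, Fosb and Egr1 replicate 1 lies right and replicate 2 left of both DMSO libraries.

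Among coding genes outside the NRF2 lists, the clearest on the higher side were Tspo, Flna, Nsmce1 and Bphl. Tspo encodes a protein of the outer mitochondrial membrane that is used as a marker of reactive glia, and had 4.85 and 3.30 with DMSO and 8.26 and 8.79 with 4-OI (0.92 ± 0.16, limma adjusted p = 0.545). Flna, which cross-links actin filaments, had 25.2 and 25.1 with DMSO and 32.4 and 35.5 with 4-OI (0.42 ± 0.07, adjusted p = 0.545). For Nsmce1, a ubiquitin ligase subunit of the SMC5/6 complex, the values were 19.1 and 19.3 against 25.3 and 25.4 (0.38 ± 0.07). Bphl, a serine hydrolase, had 6.99 and 8.23 against 13.2 and 11.6 (0.64 ± 0.11). The 4 were picked by low p among genes with groups apart, so their lack of overlap follows from the choice. Flna and Nsmce1 had nearly equal DMSO libraries, which such a choice favors. In the hemin with 4-OI libraries against the hemin libraries, Nsmce1 was at 0.09. Tspo (-0.65), Flna (-0.34) and Bphl (-0.55) were below 0 there. The pseudogene Apoo-ps, at 2.20 and 5.19 FPKM with 4-OI, was listed at 0 with DMSO, and was the 1 gene listed at 0 in 1 group and at 1 or more throughout the other.

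On the lower side, Pdf and Ttr had the lowest p. Pdf, a mitochondrial peptide deformylase, had 10.9 and 11.7 with DMSO and 5.66 and 5.15 with 4-OI (-0.94 ± 0.10, limma adjusted p = 0.0862). This gene lies against Cog8, from which reads can be assigned to it, and Cog8 itself had 11.6 and 12.9 with DMSO and 12.1 and 12.2 with 4-OI, so the value of Pdf is uncertain. Mgst3, a microsomal glutathione transferase outside the NRF2 lists, had 126 and 135 with DMSO and 104 and 110 with 4-OI (-0.28 ± 0.06, adjusted p = 0.690). Exosc1, a subunit of the RNA exosome, had 9.40 and 9.20 with DMSO and 6.04 and 6.69 with 4-OI (-0.49 ± 0.10). Trmt10c, which methylates mitochondrial transfer RNA, had 8.23 and 7.46 against 5.10 and 5.15 (-0.53 ± 0.11). The genes that led this side were likewise picked by low p among those with groups apart. The other genes that led this side were Cmc4 (-0.54, on a locus shared with Mtcp1 and so uncertain), Rilpl2 (-0.39), Snrnp27, a spliceosome protein (-0.30), Rpl28, a ribosomal protein (-0.25), and Idi1, described with the sterol genes.

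Ttr and further genes typical of choroid plexus were lower with 4-OI. Ttr encodes transthyretin, a carrier of thyroid hormone and retinol that choroid plexus makes in large amounts, and had 73.4 and 79.1 with DMSO and 40.3 and 49.1 with 4-OI. Both 4-OI libraries were well below both DMSO libraries, at a log2 fold change of -0.76 ± 0.09 (limma adjusted p = 0.124). The estimated number of fragments behind these values was 383 to 818 per library. Igf2, an insulin-like growth factor of choroid plexus and meninges, had 5.11 and 4.70 with DMSO and 3.27 and 2.92 with 4-OI (-0.53 ± 0.13, adjusted p = 0.883). Of 19 markers in the list 6 were tested and 5 of them were below 0 (16.7% were above 0, beside 54.1% of all genes). Lower without overlap were 4 (66.7% beside 15.1%): Ttr, Igf2, Enpp2, a lysophospholipase (-0.21 ± 0.12), and Folr1, a folate receptor (-0.18 ± 0.16). Calml4 (-0.28 ± 0.20) and Igfbp2 (0.01 ± 0.08, below 0 with median-of-ratios scaling) overlapped, and the median was -0.25. The summed FPKM of all 19 markers was 237 and 250 with DMSO and 194 and 225 with 4-OI, most of it Igfbp2 and Ttr. None of the 19 was listed at 0 in all 4 libraries, 13 were under the filter, and whether the share of such cells differed between the cultures was not tested. In the hemin with 4-OI libraries against the hemin libraries, none of which is among the 4, Ttr had 152 and 167 with hemin and 71.8 and 83.9 with hemin and 4-OI (-1.02 ± 0.12, adjusted p = 0.350), so both libraries with 4-OI were below both without. Igf2 had 7.63 and 8.09 against 5.65 and 5.02 (-0.49). Markers of other non-neuronal cells were also lower in that contrast: the median was -0.52 for the choroid plexus-like list, -0.52 for astrocytes, -0.67 for microglia, -0.37 for fibroblasts and -0.45 for oligodendrocyte lineage, with 0 tested members of each above 0. The part of cell makeup in the values of Ttr and Igf2 there was not tested.

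Immediate-early genes, which neurons transcribe within minutes of activity, set the 4-OI libraries apart from each other rather than from DMSO. Fos had 10.0 and 10.6 with DMSO and 14.1 and 4.41 with 4-OI. Egr1 had 15.3 and 15.8 with DMSO and 17.2 and 5.64 with 4-OI. Nr4a1 had 17.0 and 21.1 with DMSO and 19.95 and 6.07 with 4-OI. Fosb showed the widest gap, at 3.48 and 4.47 with DMSO against 5.84 and 0.46. Of 22 genes in the list, 17 had their highest value in 4-OI replicate 1 and 17 their lowest in 4-OI replicate 2. The median against the DMSO mean was 0.16 in 4-OI replicate 1 and -0.41 in replicate 2, so the pooled median of -0.12 describes neither library. No member had an unadjusted limma p below 0.05 in the 4 libraries, and without 4-OI replicate 1 Egr1 (-1.32, adjusted p = 0.0345) and Nr4a1 (-1.50, adjusted p = 0.0482) passed the threshold as lower, a fit in which the remaining 4-OI library is assumed to vary like the DMSO pair. Over 16 alternatives their adjusted p ranged up to 1.

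Markers of microglia and of oligodendrocyte lineage also parted the 4-OI libraries, in the opposite sense. Over the 15 tested microglial genes the median was -0.25 in replicate 1 and 0.38 in replicate 2. Only 1 member of 15 was higher without overlap (6.67% beside 20.4% of all genes). It was Laptm5, a lysosomal membrane protein of blood-derived cells, at 5.34 and 5.43 with DMSO and 6.28 and 7.76 with 4-OI (0.32 ± 0.13). The 5 tested oligodendrocyte genes had medians of 0.03 and 0.47 in the same order and none was without overlap. Proliferation genes (21 tested) had -0.04 and 0.15. Replicate 2 was thus the 4-OI library with more of these transcripts, with the higher median for NRF2 targets and with fewer immediate-early transcripts, and whether these differences share a source was not tested. Astrocyte markers had -0.05 and -0.03, with 2 of 16 higher (12.5%) and 4 lower (25%) without overlap, beside 20.4% and 15.1% of all genes. Among the lower was Fabp7, a fatty acid-binding protein of radial glia, at 389 and 389 with DMSO and 358 and 347 with 4-OI (-0.14 ± 0.05).

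**Figure D5:**
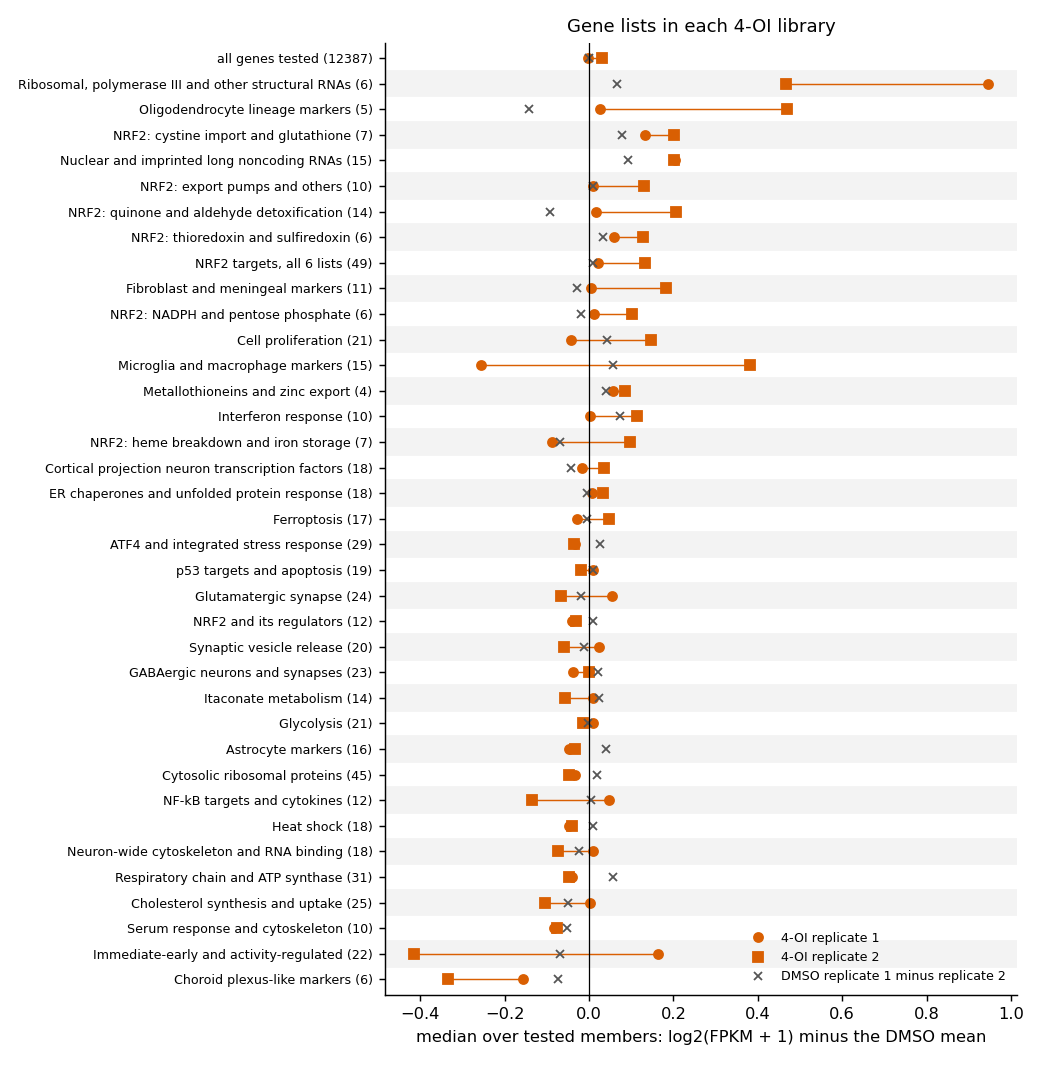
Median over the tested members of each gene list (number in brackets) of log2(FPKM + 1) minus the DMSO mean (x axis) in 4-OI replicate 1 (circles) and replicate 2 (squares), with the median difference of DMSO replicate 1 minus replicate 2 as crosses. Structural RNAs lie at 0.95 and 0.47, nuclear noncoding RNAs at 0.20 in both, immediate-early genes at 0.16 and -0.41 and microglial markers at -0.25 and 0.38.

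Sterol synthesis genes tended to be lower. Idi1, which isomerizes the isoprenoid building block, had 39.9 and 40.5 with DMSO and 33.3 and 30.2 with 4-OI (-0.33 ± 0.07, limma adjusted p = 0.690). Insig1, a brake on sterol synthesis that is itself a SREBP target, had 34.5 and 32.0 with DMSO and 28.3 and 28.0 with 4-OI (-0.23 ± 0.07). Msmo1, a sterol demethylation enzyme, had 59.7 and 61.8 with DMSO and 55.6 and 54.1 with 4-OI (-0.15 ± 0.06), and the 3 genes did not overlap. Srebf1, a transcription factor of lipid synthesis, was lower without overlap as well (-0.21 ± 0.10). Of 25 tested genes 5 were above 0, 0 were higher and 7 lower without overlap (28% beside 15.1%), with 3 at an unadjusted limma p below 0.05. The median was 0.00 in 4-OI replicate 1 and -0.10 in replicate 2, and the pooled median was -0.05.

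Among 45 cytosolic ribosomal protein genes 13 were above 0, 2 were higher (4.44% beside 20.4% of all genes) and 17 lower without overlap (37.8% beside 15.1%), and the median of -0.04 became 0.0019 with quantile normalization. Rpl28 had 462 and 476 with DMSO and 396 and 394 with 4-OI. Respiratory chain genes gave 2 higher (6.45%) and 11 lower (35.5%) of 31 without overlap, with a median of -0.05, and Ndufb10, a complex I subunit, had 126 and 139 with DMSO and 121 and 114 with 4-OI (-0.17 ± 0.07). Heat shock genes gave 2 (11.1%) and 8 (44.4%) of 18, against the same shares of all genes (median -0.05). They were led by Hspd1, the mitochondrial chaperonin, at 121 and 124 with DMSO and 105 and 116 with 4-OI. Over alternatives that kept all 4 libraries, the respiratory chain median ranged from -0.0686 to -0.0139. The heat shock median ranged from -0.0685 to -0.0127. Glycolysis genes had no common direction, with 5 of 21 higher and 5 lower without overlap (23.8% each). Pfkp, a phosphofructokinase, had 26.3 and 25.1 with DMSO and 31.3 and 31.5 with 4-OI (0.28 ± 0.06), whereas Gapdh had 503 and 552 with DMSO and 461 and 465 with 4-OI (-0.19 ± 0.06).

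Differences also varied slightly with gene properties. With genes in 4 classes of equal size by their mean over the 4 libraries, the median log2 fold change was 0.04 in the lowest class and -0.02 in the highest. Above 0 were 59.5% of genes in the lowest of these classes and 39.8% in the highest. In such classes by transcript length it was -0.02 in the shortest and 0.04 in the longest, with lengths at hand for 99% of genes, while DMSO replicate 2 minus replicate 1 gave -0.02 and 0.01. The 398 genes with only noncoding RefSeq transcripts had a median of 0.07, and 64.1% of them were above 0, beside 0.01 for 11532 genes with only coding ones. These values stand beside the differences of Malat1, Meg3 and the ribosomal protein, respiratory chain, heat shock and neuron-wide genes. Their part in those differences was not tested.

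Synaptic gene groups had counts near those of all genes, and neuron-wide genes had more on the lower side. Of the 18 neuron-wide genes 0 were higher and 7 lower without overlap (38.9% beside 15.1% of all genes), with medians of 0.01 and -0.07 in 4-OI replicates 1 and 2. The pooled median of -0.05 ranged from -0.0685 to -0.012 over alternatives that kept all 4 libraries. Stmn2, a regulator of microtubules in growing axons, had 620 and 624 with DMSO and 596 and 545 with 4-OI (-0.13 ± 0.06). Synaptic vesicle genes gave 4 higher (20%) and 3 lower (15%) of 20, glutamatergic synapse genes 6 (25%) and 3 (12.5%) of 24 and GABAergic genes 4 (17.4%) and 5 (21.7%) of 23, beside 20.4% and 15.1% of all genes. The members of lowest p were Shank2, a scaffold of excitatory synapses (0.18 ± 0.07), Bsn, a scaffold of the presynaptic active zone (0.17 ± 0.07), and Npy, a neuropeptide of interneurons (-0.19 ± 0.07), each in its list.

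The remaining lists are given by their members higher and lower without overlap, beside 20.4% and 15.1% of all genes. ATF4 targets had 3 higher (10.3%) and 6 lower (20.7%) of 29 (median -0.01, above 0 with rescaling to TPM), with Gdf15, a stress hormone, at 2.49 and 3.21 with DMSO and 5.09 and 3.52 with 4-OI. Genes of the unfolded protein response had 4 and 2 of 18, and p53 targets 3 and 3 of 19. NF-kB targets had 1 and 2 of 12, and the chemokine gene Ccl2 was at 3.91 and 3.77 with DMSO and 3.10 and 2.49 with 4-OI (-0.36 ± 0.14). Interferon response genes had 4 and 1 of 10 at levels near the filter. Of the 4 higher, 2 (Isg15 and Irf9) passed it only through the 4-OI libraries and so had to be higher without overlap. Isg15, a ubiquitin-like modifier and among these, was at 0.30 and 0.98 with DMSO and 1.58 and 1.34 with 4-OI. Serum response genes had 0 and 4 of 10 (40%), with 9 of 10 below 0 and a median of -0.08. Tagln, an actin-binding protein of that list, was at 9.36 and 11.1 with DMSO and 6.98 and 7.93 with 4-OI (-0.41 ± 0.12). Metallothionein and zinc export genes had 1 and 0 of 4, with all 4 above 0 but a median of 0.02 (0.01 over all genes). Mt2 (0.16) was the member without overlap, whereas Mt1 (0.03), Mt3 (0.02) and Slc30a1 (0.02) overlapped. Fibroblast markers had 5 (45.5%) and 1 (9.09%) of 11, with a median of 0.07, ferroptosis genes 2 and 1 of 17, and cortical projection neuron factors had 5 and 4 of 18.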

How the data were processed

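RNA of mouse cortical neuron cultures was sequenced in 8 libraries, of which the 4 without hemin were compared. The authors deposited FPKM values, fragments scaled by transcript length and library size, for 19417 genes. Alignment with Bowtie2 and quantification with RSEM on the mm8 build stand in the submitters' processing notes. Versions, annotation, strandedness and RNA selection were not given in the sources used here. FPKM carries no counts, so depth was estimated from the steps between low values (78.5% to 84.9% within 0.15 of a whole fragment) and entered no test, and its precision is limited accordingly.

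Values were tested as log2(FPKM + 1) with limma 3.58.1 in R 4.3.3 (lmFit, eBayes with an intensity trend, two-sided, Benjamini-Hochberg over 12387 genes, threshold 0.05) on the 4 libraries, with 2 residual and 5.59 prior degrees of freedom. Contrasts with hemin came from a fit of all 8. Errors are standard errors of the fit. Lists were described by counts and medians, without a test. Gene groups, lists and members were chosen with earlier results of these data known. Named genes were 18 key genes, the 10 of lowest p in each direction with groups apart and a mean FPKM of 5 or more on the higher side, passing over numbered gene models, and up to 4 of lowest p per list. Genes named outside this rule were chosen after their values were seen: Xist, Apoo-ps, Cog8, Rn18s, Rn7sk, Pvt1, Tug1, Snhg1, Folr1, Igfbp2, Nfe2l1, Bach2, Fos and Fosb. Groups and replicate numbers were taken from the sample labels. Alternatives were other pseudocounts, filters, scalings, variance models and library sets, a replicate block and leaving out each library. On simulated data for this comparison with 12387 genes, the fit recovered 86.6% of 1.5-fold (58 of 67) and 100% of 2-fold changes (67 of 67). It also recovered 66 of 66 4-fold changes and called 19 unchanged genes. False calls thus made up more of the calls than the 0.05 set by the threshold. The 200 changed genes all had a mean DMSO log2(FPKM + 1) above 2, and noise was independent and normal at the fitted spread. These shares therefore give no estimate of power for the real libraries, where no gene passed, those at 1.5-fold or more included. Promoter sequences came from RefSeq (GRCm38.p6), and lengths and classes from an annotation of that build, since mm8 was not used here. Python 3.11.15, pandas 2.3.3, numpy 2.4.6 and matplotlib 3.10.9 were used.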

Additional observations from a re-analysis of the deposited data

How the results depend on the processing

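The count of genes past the adjusted threshold was 0 in the fit as reported and stayed at 0 with a pseudocount of 0.1, no filter, median-of-ratios or quantile scaling, all 8 libraries or no intensity trend. It was 2, Srxn1 and Malat1, with a filter at an FPKM of 5, with rescaling to TPM, in 6 libraries without the hemin pair, and in 7 libraries without either hemin replicate, the last alternatives having been chosen after seeing the data. With the replicate number as a block it was 9 (Srxn1, Malat1, Hmox1, Snord116l2, Ttr, Rn28s1, Rn7s1, Rn7s2 and Apoo-ps), but the numbers did not pair the libraries: deviations correlated at -0.007 between DMSO and 4-OI and at -0.11 to 0.054 over all pairs of groups. The block moved no other count by over 1.5 times. With all 8 libraries, 103 genes were higher and 53 lower at an unadjusted p below 0.05. Leaving out each library gave 0 to 8 genes past the threshold, the 8 (Hmox1, Meg3, Erdr1, Srxn1, Egr1, Snord116l2, Nr4a1 and Apoo-ps) without 4-OI replicate 1. It gave 180 to 922 genes higher and 125 to 640 lower at an unadjusted p below 0.05, 4230 to 5487 higher and 3468 to 4496 lower without overlap, where fewer libraries make overlap rarer. For NRF2 targets the median ranged from 0.02 to 0.13, members without overlap from 21 to 38 and those at an unadjusted p below 0.05 from 7 to 15, with 29 to 45 above 0. The interaction count ranged from 0 to 2536. The cause of these shifts was not tested.

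Of 99 genes followed, none had a call to lose, and these changed sign. Rescaling to TPM put Nfe2l2 at 0.0036, and median-of-ratios scaling put Ftl1 at -0.0015, Rn18s at -0.014 and Igfbp2 at -0.0034. With each library left out in turn, Fos ranged from -1.06 to 0.42, Fosb from -1.76 to 0.47, Egr1 from -1.32 to 0.14 and Nr4a1 from -1.50 to 0.070. Nfe2l2 ranged from -0.10 to 0.078, Keap1 from -0.052 to 0.10, Fth1 from -0.006 to 0.097, Ftl1 from -0.12 to 0.15, Rn18s from -0.21 to 0.22 and Igfbp2 from -0.10 to 0.13. The highest value of the 4 immediate-early genes was without 4-OI replicate 2. Depth limits genes of low FPKM most, among them Nqo1, Slc7a11 and Aox1.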
